A study of Mus musculus with 24 samples.

Results

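The mouse genes Zfp900 to Zfp999 encode zinc finger proteins, most of them with a KRAB domain, and many lie in arrays of recently duplicated copies. Members were taken as the rows of the normalized table that are marked protein coding and whose symbol is Zfp followed by a 3-digit number beginning with 9, and 61 of 28802 rows met this rule. Each of 24 libraries was made from the retina of wild type mice at postnatal day 28, with 3 libraries for each of 8 inbred strains. The classical laboratory strains were NOD/ShiLtJ, NZO/HlLtJ, A/J, C57BL/6J and 129S1/Svlmj, and the wild-derived strains were CAST/EiJ, PWK/PhJ and WSB/EiJ. The authors describe the 3 samples of a strain as biological replicates, and p-values measure the spread between them. Values are cpm, the reads of a gene per 1 M reads of its library, and the read totals recovered from the values were 57607000 to 78150000 (median 68942500). At this depth 3 reads, taken as the floor of detection for counting error alone, were worth 0.0384 to 0.0521 cpm.

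KRAB zinc finger proteins bind DNA through arrays of fingers, each of which reads a few bases, and the KRAB domain recruits the corepressor TRIM28, also called KAP1. TRIM28 brings in the histone methyltransferase SETDB1 and heterochromatin proteins, and many of the best studied targets are retroelements that are silenced in this way. The family grows by tandem duplication, so neighbouring genes can be nearly identical in sequence.

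The libraries showed the markers of retina. The rod gene Gnat1 was at 1697 to 2598 cpm over all 24 libraries, and Glul of Müller glia was at 499.5 to 768.9 cpm. Lhx1 of horizontal cells, the least abundant of the retinal markers given here, was at 0.176 to 0.606 cpm, above the floor in each library. Libraries correlated at 0.989 to 0.998 within strains and at no more than 0.986 between strains (Pearson, log2(cpm + 1) over the genes tested). The 8 lens genes looked at stood apart in single libraries, where they summed to 1713 cpm in the second 129S1/Svlmj library, 1918 cpm in the second NOD/ShiLtJ library and 225.4 cpm in the second C57BL/6J library. The other 21 libraries had lens sums of 5.32 to 90.1 cpm, and the most abundant lens gene was Cryaa, with up to 755.2 cpm. The 5 pigment epithelium genes summed to 10.3 to 83.1 cpm, with Rgr the most abundant (up to 38.37 cpm), and the 4 blood genes to 5.47 to 29.96 cpm, with Hbb-bs the most abundant (up to 16.8 cpm). Xist was at 962.1 cpm in the third 129S1/Svlmj library, 906.2 cpm in the third C57BL/6J library, 1081 cpm in the second PWK/PhJ library and 1046 cpm in the third CAST/EiJ library, and at 9.71 cpm or less in the other libraries. The part of pigment epithelium and blood RNA in the results was not tested, while counts without the lens-rich libraries and with Xist as a covariate are given with the first comparison.

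Gene models of GENCODE M21 on GRCm38 showed what the members share beyond the name, and 60 of the 61 members had the same start and end there as in the table, with Zfp967 the exception. A pattern of the KRAB core lay in the first 120 codons of 58 of the 61 members, and the exceptions were Zfp972, Zfp956 and Zfp974. At least 1 zinc finger pattern was found in 59 members, with a median of 11 fingers and a highest count of 21 in Zfp974. Zfp972 and Zfp935, with coding sequences of 139 and 150 codons, had 0 matches to the finger pattern, against a median of 486 codons over the members. The members lay on 11 chromosomes, and 44 of them fell into 6 clusters, defined as members no more than 1 Mb from the next one. The largest clusters held 16 members on chromosome 4 (chr4:145510759-147848366), 10 on chromosome 2 (chr2:175372436-178078476) and 10 on chromosome 17 (chr17:21567008-22867134). Smaller clusters held 3 members on chromosome 7, 3 on chromosome 8 and 2 on chromosome 13, and 17 members stood alone. The table also held 1 row of this name range that is not marked protein coding, Zfp939, which was left out.

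Near-identical copies limit what the value of 1 gene means, because the authors' counting divided reads between the transcripts they matched. As a measure of this, the exons of each member were broken into words of 31 bases, and the share of words that also occur in another annotated gene was counted. The median share was 36.7% over the 61 members, 92.2% in the chromosome 2 cluster, 74.1% in the chromosome 4 cluster, 13.6% in the chromosome 17 cluster and 7.8% among single members. Zfp967 and Zfp969 had no word of their own, even at 100 bases, the length of a read, since all of their words occur in Zfp966 or Zfp968. At the other end, 1.3% of the words of Zfp949 and 1.7% of those of Zfp945 were shared, and none of 100 bases. Values of members with large shares are uncertain as values of single genes, and sums over copies are given for Zfp966 to Zfp969, for Zfp965 with Zfp973 and for Zfp991 to Zfp993 only. Exons that overlap another gene add to this uncertainty, as for Zfp935, whose exons lie wholly within those of Gm49359 and Zfp934, and Zfp963, with 40.8% of its exon bases in Gm20422. Whether the reads were counted by strand is not given in the sources used here.

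Strain differences were larger among the tested Zfp900 to Zfp999 genes than in the table as a whole. Of the members, 50 reached a mean of 0.5 cpm over the libraries and entered the F-test of limma for any difference among strains, which was fitted to log2(cpm + 1) of all 16400 genes that reached this mean. At a Benjamini-Hochberg adjusted p under 0.01, 40 of the 50 tested members were called, or 80%, against 70.6% of all genes tested. A wide range, meaning a call and a difference of at least 1 between the highest and lowest strain mean on the log2(cpm + 1) scale, was found for 20 of 50 members (40%), against 11.4% of all genes. With a pseudocount of 0.1 in place of 1 these values were 23 of 50 members and 20.1% of all genes, with no filter 20 of 61 members and 6.96%, and without CAST/EiJ and PWK/PhJ they were 15 of 51 members and 5.49%. A range of at least 2 was found for 12 of 50 members (24%), against 2.59% of all genes. The median range was 0.82 for the tested members, 0.43 for all genes and 0.38 for the 285 other numbered Zfp genes tested, of which 17 (6%) had a wide range. These shares describe the tested members only, and in none of the 50 did the mean outside the highest strain lie under the filter. Without the 2 libraries with the highest lens sums, a choice made after seeing the data, 21 members had a wide range and the background was 11.6%, and with Xist as a covariate the values were 21 and 11.4%. In whole retina, a lower value from fewer cells of a type cannot be told apart from less RNA per cell.

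**Figure D1:**
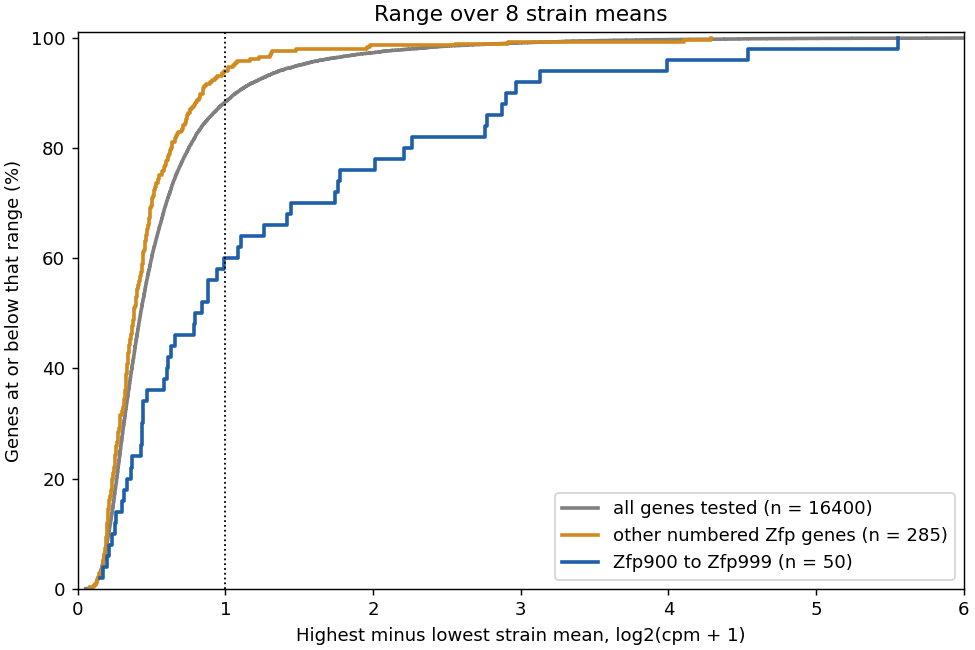
Cumulative share of genes (%, vertical axis) by the difference between the highest and lowest of 8 strain means (log2(cpm + 1), horizontal axis) for all 16400 genes tested, the 285 other numbered Zfp genes and the 50 tested members, with a dotted line at a range of 1. The curve of the members lies to the right of the others, with 40% of members beyond a range of 1 against 11.4% of all genes.

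The clusters differed in how far their members varied. In the chromosome 2 cluster 7 of the 8 tested members had a wide range, with a median of 2.93 on the log2(cpm + 1) scale. In the chromosome 4 cluster this held for 6 of 7 tested members, with a median of 1.78. In the chromosome 17 cluster it held for 1 of 10, with a median of 0.64, and in the clusters on chromosomes 7, 8 and 13 for 0 of 8 members, of which 6 were called by the F-test. Over all genes 11.4% had a wide range and 70.6% were called, so the counts of these 4 clusters lay near the background. Of the single members 6 of 17 had a wide range, and their median was 0.60. At least 50% of words were shared in 21 members, of which 11 were tested and the others lay below the filter. Of these 11 tested members 10 had a wide range, against 10 of 39 tested members with less shared sequence. This split was chosen after the values were seen and carries no test, and all 7 wide members of chromosome 2 belong to the first set.

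**Figure D2:**
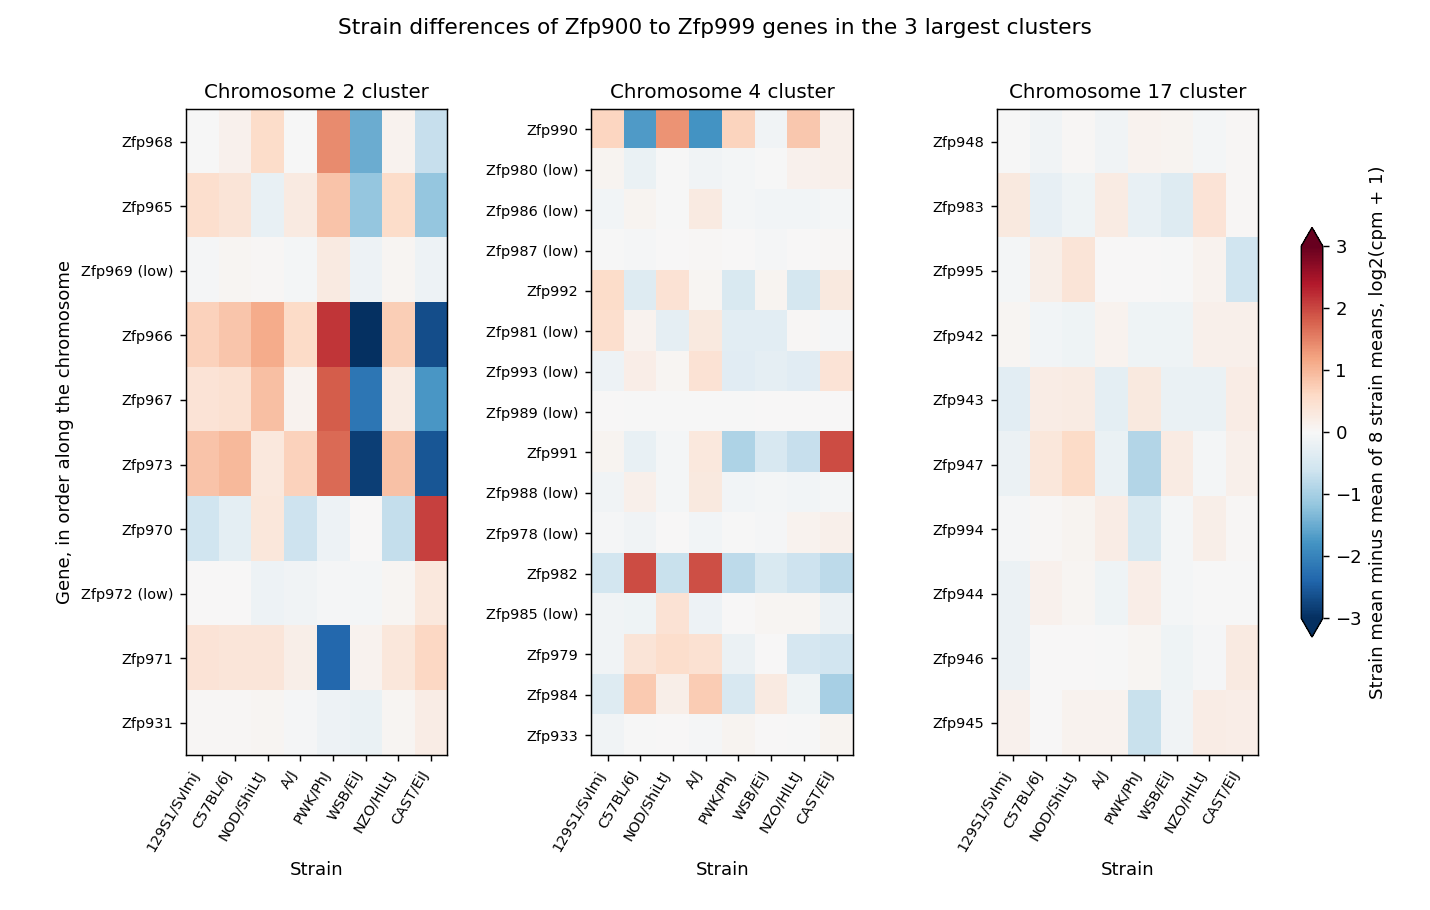
Strain mean minus the mean of the 8 strain means (color, log2(cpm + 1)) for each member (vertical axis, in order along the chromosome) and strain (horizontal axis) in the clusters on chromosomes 2, 4 and 17, with members below the filter marked as low. The deepest blue is seen for Zfp966 and Zfp973 in WSB/EiJ and CAST/EiJ, and the chromosome 17 cluster is pale apart from single cells such as Zfp947 in PWK/PhJ.

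On chromosome 2, Zfp966, Zfp967, Zfp968 and Zfp973 were highest in PWK/PhJ and lowest in WSB/EiJ without overlap with other strains, and CAST/EiJ was next to the lowest. Zfp966 (chr2:175918881-175931100, minus strand), a KRAB gene with 11 fingers, had the widest range of the members. Its libraries were at 60.7, 61.6 and 60.9 in PWK/PhJ, 0.272, 0.381 and 0.317 in WSB/EiJ and 1.04, 1.25 and 1.37 in CAST/EiJ (cpm). They were at 22.2, 20.01 and 22.7 in 129S1/Svlmj, 19.8, 20.4 and 19.04 in A/J and 24.7, 21.9 and 24.8 in C57BL/6J, and at 27.8, 32.3 and 27.6 in NOD/ShiLtJ and 23.8, 21.1 and 22.3 in NZO/HlLtJ. PWK/PhJ lay above and WSB/EiJ below all other libraries without overlap, with CAST/EiJ next to the lowest and the 5 classical strains within 19.04 to 32.3 cpm. The ratio of the PWK/PhJ to the WSB/EiJ mean was 189, and the range was 5.55 on the log2(cpm + 1) scale (limma, Benjamini-Hochberg adjusted p = 3.9e-25). Zfp967 (chr2:176521000-176533785), whose words all occur in Zfp966, was at 16.98, 16.1 and 16.03 in PWK/PhJ, 0.0835, 0.132 and 0.0696 in WSB/EiJ and 0.598, 0.413 and 0.446 in CAST/EiJ, and at 4.01 to 9.89 cpm in the 15 libraries of the classical strains. It followed the order of Zfp966, with PWK/PhJ highest and WSB/EiJ lowest and no overlap with other strains (range 3.99 on the log2(cpm + 1) scale, limma, Benjamini-Hochberg adjusted p = 2.01e-19). Zfp968 (chr2:175372436-175384201) was at 8.68, 8.60 and 9.63 in PWK/PhJ, 0.257, 0.317 and 0.444 in WSB/EiJ and 1.10, 1.57 and 1.32 in CAST/EiJ, and at 2.34 to 4.67 cpm in the classical strains, with a ratio of 26.4 between the highest and lowest mean (range 2.90 on the log2(cpm + 1) scale, limma, Benjamini-Hochberg adjusted p = 4.37e-15). Zfp969, below the filter, was at 0.206 to 0.515 cpm in PWK/PhJ, at or under 3 reads in all libraries of WSB/EiJ and CAST/EiJ, and at 0.0421 to 0.362 cpm in the classical strains, which overlapped with PWK/PhJ. Because reads can pass between these copies, their sum is also given, but 76.2% of the words of Zfp965 and 64.4% of those of Zfp973 occur in Zfp968, so reads can pass between the sums as well. Summed over Zfp966 to Zfp969, PWK/PhJ had 86.7 ± 0.23 cpm, WSB/EiJ 0.758 ± 0.126 cpm and CAST/EiJ 3.04 ± 0.261 cpm (SD, n = 3), and the means of the classical strains were 26.8 to 42.1 cpm. The sum thus kept PWK/PhJ highest and WSB/EiJ lowest, with a range of 5.64 on the log2(cpm + 1) scale. It leaves out genes outside the name range that share words with these copies, such as Gm14288 with Zfp968.

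Zfp973 and Zfp965 form a second pair, in which 83.7% of the words of Zfp965 occur in Zfp973. Zfp973 (chr2:176670522-176719085), with 6 fingers, was at 26.7, 24.4 and 24.02 in PWK/PhJ, 0.0949, 0.149 and 0.114 in WSB/EiJ and 0.260, 0.413 and 0.345 in CAST/EiJ (cpm). It was at 14.8, 10.8 and 14.8 in 129S1/Svlmj, 12.3, 12.8 and 10.7 in A/J and 14.8, 13.8 and 15.2 in C57BL/6J, and at 8.51, 8.90 and 9.56 in NOD/ShiLtJ and 14.6, 13.6 and 12.5 in NZO/HlLtJ. PWK/PhJ was again highest and WSB/EiJ lowest without overlap, and NOD/ShiLtJ, at 8.51 to 9.56 cpm, lay below the other classical strains. The ratio of the highest to the lowest mean was 209, and the range was 4.54 on the log2(cpm + 1) scale (limma, Benjamini-Hochberg adjusted p = 6.39e-22). Zfp965 (chr2:175469985-175482171) was at 2.74, 3.01 and 3.35 in PWK/PhJ, 2.30, 1.75 and 2.99 in NZO/HlLtJ and 2.15, 3.15 and 1.43 in 129S1/Svlmj, at 2.47, 1.68 and 1.64 in C57BL/6J, 1.63, 0.994 and 2.70 in A/J and 0.757, 1.49 and 0.581 in NOD/ShiLtJ (cpm), and at or under 3 reads in all libraries of WSB/EiJ and CAST/EiJ, and PWK/PhJ overlapped with 129S1/Svlmj and NZO/HlLtJ. Its PWK/PhJ mean of 3.04 cpm was at least 76.7-fold higher than the 3-read floor of the CAST/EiJ libraries (range 2.01 on the log2(cpm + 1) scale, limma, Benjamini-Hochberg adjusted p = 3.75e-09). It was the 1 tested member with a strain at or under the floor in all 3 libraries and another strain with a mean of at least 0.5 cpm, a rule that 0.994% of all genes met. The sum of the pair was 28.1 ± 1.18 cpm in PWK/PhJ, 0.129 ± 0.0185 cpm in WSB/EiJ, 0.339 ± 0.0768 cpm in CAST/EiJ (SD, n = 3) and 9.93 to 16.6 cpm in the means of the classical strains. Gm14288 and Gm14327 also share words with both copies and are not in this sum.

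The remaining members of the cluster did not follow this order. Zfp970 (chr2:177464733-177478129), with 14 fingers and 67.9% of its words shared, was high in CAST/EiJ, at 42, 54.4 and 46.8 cpm. It was at 14.3, 14.1 and 12.98 in NOD/ShiLtJ, 9.75, 12.7 and 10.1 in WSB/EiJ and 10.8, 9.38 and 8.44 in PWK/PhJ, and at 8.71, 8.27 and 8.60 in C57BL/6J. It was lowest, at 7.84, 6.12 and 6.28 in 129S1/Svlmj, 7.20, 6.15 and 6.63 in A/J and 6.67, 5.85 and 5.78 in NZO/HlLtJ. CAST/EiJ lay above all other libraries, of which the highest was 14.3 cpm, with a ratio of 7.83 to the NZO/HlLtJ mean (range 2.77 on the log2(cpm + 1) scale, limma, Benjamini-Hochberg adjusted p = 1.54e-15). Zfp971 (chr2:178023284-178034022), with 12 fingers and 69.5% of its words shared, was low in PWK/PhJ, at 1.79, 1.23 and 1.98 cpm. It was at 19.2, 19.02 and 20.9 in CAST/EiJ, 11.8, 16.8 and 12.8 in WSB/EiJ and 17.9, 15.3 and 17.5 in 129S1/Svlmj, and at 17.3, 15.9 and 16.4 in NOD/ShiLtJ. It was at 14.1, 14.6 and 14.1 in A/J, 17, 15.04 and 17.2 in C57BL/6J and 16.9, 15.01 and 16.6 in NZO/HlLtJ. PWK/PhJ was apart from the other strains, whose lowest library was at 11.8 cpm, and the CAST/EiJ mean was 11.8 times that of PWK/PhJ (range 2.97 on the log2(cpm + 1) scale, limma, Benjamini-Hochberg adjusted p = 3.54e-16). Without CAST/EiJ and PWK/PhJ the range of Zfp971 fell to 0.29 and was no longer called (limma, Benjamini-Hochberg adjusted p = 0.0497). Zfp931, at the edge of the cluster, varied little, from 5.79 to 10.4 cpm over the libraries, and was called with a range of 0.43 on the log2(cpm + 1) scale (limma, Benjamini-Hochberg adjusted p = 0.0079), a call lost without any 1 of 13 single libraries (highest adjusted p = 0.0282). Zfp972, below the filter, was highest in CAST/EiJ at 0.452, 0.347 and 0.535 cpm, and at 0.0270 to 0.264 cpm elsewhere. Over all 10 members the cluster summed to 133.1 ± 2.44 cpm in PWK/PhJ, 32.5 ± 5.76 cpm in WSB/EiJ and 80.7 ± 6.6 cpm in CAST/EiJ (SD, n = 3), and the means of the classical strains were 69.1 to 90.8 cpm.

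Other genes inside the chromosome 2 cluster also varied widely. Of 30 other tested genes within its bounds 27 had a wide range (90%), with a median range of 2.20 on the log2(cpm + 1) scale, against 7 of 30 (23.3%) and a median of 0.50 in the 2 Mb on either side. Against the other 7 strains (limma, adjusted p under 0.01 and a difference of at least 0.5 on the log2(cpm + 1) scale), 14 of the 30 were called lower in WSB/EiJ and 3 higher (background 2.87% and 2.22%), with 4 and 0 of the 30 flanking genes. In CAST/EiJ 12 were lower and 11 higher (background 6.13% and 4.2%; flanks 1 and 6), and in PWK/PhJ 6 were lower and 11 higher (background 5.41% and 4.72%; flanks 1 and 2). The neighbours thus moved in both directions in each of these strains. The neighbours named next were chosen after their values were seen. Gm14296 had means of 0.0912 cpm in WSB/EiJ and 0.261 cpm in CAST/EiJ, against 29.3 to 38.9 cpm in the other strains. Gm14305, which overlaps 9.3% of the exon bases of Zfp973, had means of 0.122 cpm in WSB/EiJ, 0.934 cpm in CAST/EiJ and 24.4 cpm in PWK/PhJ. Gm14326 was low in PWK/PhJ like Zfp971, with a mean of 1.16 cpm against 11.7 to 17.6 cpm, and Gm14325 was high in CAST/EiJ like Zfp970, with 64.1 cpm against 11.1 to 21.4 cpm. Gm14288 shares words with Zfp965, Zfp968, Zfp970, Zfp971 and Zfp973, and Gm14327 with Zfp965. Gm6710, Gm14305, Gm14308, Gm14322 and Gm14418 share words with Zfp931. The values of such neighbours carry the same uncertainty, and how far the 27 wide neighbours and the members draw on the same reads was not tested.

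The promoters of the chromosome 2 members were compared because copies with nearly the same start region had different strain patterns. RefSeq windows of 300 bases around the gene start (GRCm38.p6) were found for 51 of the 61 members, and were missing for Zfp930, Zfp934, Zfp960, Zfp969, Zfp978, Zfp986, Zfp989, Zfp990, Zfp991 and Zfp992. The windows of Zfp966 and Zfp967 matched at 300 of 300 bases, and that of Zfp968 matched Zfp966 at 274 of 274 aligned bases. Zfp970, with its peak in CAST/EiJ, matched Zfp966 at 293 of 295 aligned bases, and Zfp971, low in PWK/PhJ, at 279 of 286. Counted from 1 at the 5′ end of the Zfp966 window and with the Zfp966 base first, Zfp970 differed by T233C and G240A, and Zfp971 by C51T, T58C, T59A, A84G, C141G, G240A and A275G. Zfp972, with no finger pattern, had the lowest match, at 63.2% to 66.9% of aligned bases. Windows were aligned without gaps, so bases gained or lost inside a window lower such a share. The part of this in the low match of Zfp972 was not measured. The sequences are the reference strain's and do not show the alleles of the other strains. Windows are printed 5′ to 3′ on the strand of the gene, with the motif CCAAT or its reverse complement ATTGG in capitals, for Zfp966 (chr2:175931051-175931350, minus strand), Zfp970 (chr2:177464492-177464791, plus strand) and Zfp971 (chr2:178023034-178023333, plus strand).
Zfp966: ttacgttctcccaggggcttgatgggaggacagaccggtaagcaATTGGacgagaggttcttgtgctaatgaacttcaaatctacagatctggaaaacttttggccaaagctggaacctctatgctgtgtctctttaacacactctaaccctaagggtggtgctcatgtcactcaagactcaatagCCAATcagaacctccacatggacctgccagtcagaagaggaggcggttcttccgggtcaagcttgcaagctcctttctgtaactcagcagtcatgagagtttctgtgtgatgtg
Zfp970: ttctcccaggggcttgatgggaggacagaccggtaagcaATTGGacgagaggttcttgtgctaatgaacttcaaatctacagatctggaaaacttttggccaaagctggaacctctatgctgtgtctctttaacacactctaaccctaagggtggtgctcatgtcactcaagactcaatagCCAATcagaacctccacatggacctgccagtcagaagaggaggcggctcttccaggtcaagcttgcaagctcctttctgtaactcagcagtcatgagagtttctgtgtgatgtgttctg
Zfp971: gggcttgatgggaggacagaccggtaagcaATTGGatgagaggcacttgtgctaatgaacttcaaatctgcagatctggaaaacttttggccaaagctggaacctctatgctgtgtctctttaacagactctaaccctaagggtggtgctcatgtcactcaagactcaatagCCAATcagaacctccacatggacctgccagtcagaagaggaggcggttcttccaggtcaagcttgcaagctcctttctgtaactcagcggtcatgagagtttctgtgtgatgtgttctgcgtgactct
Each of the 3 windows holds 2 matches. Searched on both strands, CCAAT was present in 9 of 9 chromosome 2 windows and in 39 of 51 member windows (76.5%), against 37.4% of the 32851 windows in the RefSeq table. The other motifs were searched and counted in the same way. CGGAAG with its reverse complement CTTCCG was present for 19 of 51 members (37.3%) and in 16.9% of all windows. GGGCGG with CCGCCC was present for 18 of 51 members (35.3%) and in 35.7% of windows, and TATAAA with TTTATA for 0 of 51 members and in 13.6% of windows. A match of letters is a description of the window and not a binding site.

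The chromosome 4 cluster, the largest, had strain patterns that split along other lines, with C57BL/6J and A/J set against the remaining strains in several members. Zfp990 (chr4:145510759-145539188), with 13 fingers, was nearly absent in these strains, at 0.144, 0.166 and 0.168 in C57BL/6J and 0.0525, 0.0972 and 0.137 in A/J (cpm). It was at 8.91, 8.83 and 8.02 in NOD/ShiLtJ, 5.76, 5.26 and 5.93 in NZO/HlLtJ and 5.42, 4.46 and 5.09 in 129S1/Svlmj. It was at 4.84, 5.31 and 4.82 in PWK/PhJ, 2.98, 3.16 and 3.52 in CAST/EiJ and 2.37, 2.72 and 2.47 in WSB/EiJ. The 6 strains other than C57BL/6J and A/J were at 2.37 to 8.91 cpm, with no overlap with either, and NOD/ShiLtJ was apart above the rest (ratio of means 89.7 to A/J, range 3.13 on the log2(cpm + 1) scale, limma, Benjamini-Hochberg adjusted p = 5.89e-21). Zfp982 (chr4:147492417-147513486), with 7 fingers, had the opposite pattern, at 6.37, 5.48 and 6.90 in C57BL/6J and 6.05, 6.07 and 6.15 in A/J (cpm). It was at 0.211, 0.288 and 0.271 in 129S1/Svlmj, 0.394, 0.446 and 0.208 in WSB/EiJ and 0.158, 0.255 and 0.0838 in NOD/ShiLtJ, and at 0.146, 0.288 and 0.184 in NZO/HlLtJ. It was at 0.0686, 0.0771 and 0.0654 in CAST/EiJ and 0.0765, 0.0342 and 0.114 in PWK/PhJ. The 6 libraries of C57BL/6J and A/J lay at 5.48 to 6.90 cpm and the 18 others at or below 0.446 cpm, a ratio of means of 88.8 between C57BL/6J and CAST/EiJ (range 2.76 on the log2(cpm + 1) scale, limma, Benjamini-Hochberg adjusted p = 1.3e-20). Of 31-base words, 49.4% were shared for Zfp990 and 29.7% for Zfp982, but only 3.6% and 3.1% of words of 100 bases, so few words of read length were shared. Zfp984, with 68.8% of its words shared, was also highest in C57BL/6J and A/J, at 2.68, 2.48 and 2.85 in C57BL/6J and 2.68, 2.60 and 2.59 in A/J (cpm), and lowest in CAST/EiJ at 0.0751, 0.0517 and 0.0880 cpm, with the other strains at 0.286 to 1.79 cpm (range 1.77 on the log2(cpm + 1) scale, limma, Benjamini-Hochberg adjusted p = 5e-13). Zfp979 was at 0.978 to 1.60 cpm in C57BL/6J, A/J and NOD/ShiLtJ, at 0.0523 to 0.192 cpm in CAST/EiJ and NZO/HlLtJ and at 0.346 to 0.710 cpm in 129S1/Svlmj, PWK/PhJ and WSB/EiJ (range 1.10 on the log2(cpm + 1) scale, limma, Benjamini-Hochberg adjusted p = 6.3e-11).

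Zfp991, Zfp992 and Zfp993 are copies of each other and of the pseudogene Znf41-ps, with 88.0% of the words of Zfp991 shared. Zfp991 (chr4:147132038-147180579), with 11 fingers, was high in CAST/EiJ, at 21.5, 22.8 and 24.1 cpm. It was at 5.82, 7.84 and 6.28 in A/J, 5.58, 5.15 and 5.89 in 129S1/Svlmj and 4.94, 5.40 and 4.49 in NOD/ShiLtJ, and at 4.16, 3.33 and 5.59 in C57BL/6J. It was at 3.40, 3.95 and 2.91 in WSB/EiJ, 2.80, 2.80 and 2.74 in NZO/HlLtJ and 2.14, 2.57 and 2.04 in PWK/PhJ. CAST/EiJ was apart above the highest other library, 7.84 cpm, and PWK/PhJ apart below the rest, with a ratio of means of 10.1 (range 2.87 on the log2(cpm + 1) scale, limma, Benjamini-Hochberg adjusted p = 2.87e-14). Zfp992 had a smaller range, highest in 129S1/Svlmj with 8.57, 9.71 and 11.5 cpm and lowest in NZO/HlLtJ with 4.57, 3.77 and 4.06 cpm, and these libraries overlapped with those of other strains (range 1.08 on the log2(cpm + 1) scale, limma, Benjamini-Hochberg adjusted p = 2.64e-08). The sum of Zfp991, Zfp992 and Zfp993 was 31.8 ± 2.11 cpm in CAST/EiJ and 6.8 ± 0.28 cpm in PWK/PhJ (SD, n = 3), with the other strain means at 7.06 to 15.8 cpm, so CAST/EiJ also stood apart in the sum. Znf41-ps was not part of this sum. Zfp933, at the end of the cluster and with 10.1% of its words shared, was even over strains, at 22.96 to 29.7 cpm, and was not called (range 0.17 on the log2(cpm + 1) scale, limma, Benjamini-Hochberg adjusted p = 0.252). The summed level of the 16 members was 40.5 to 63.4 cpm over the strain means, a range of 0.63 on the log2(cpm + 1) scale, and Zfp933, even and with a mean of 25.6 cpm, was a large part of this sum. Of 12 other tested genes inside this cluster 3 had a wide range (25%), against 10 of 45 (22.2%) in the 2 Mb on either side, and most of the 12 were processed pseudogenes. Rex2, the 1 protein-coding gene of the 12, which shares words with Zfp980, had means of 0.0177 cpm in C57BL/6J and 0.0277 cpm in A/J against 0.354 to 1.45 cpm in the other strains, as for Zfp990.

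The 9 members of chromosome 4 below the filter had means under 0.5 cpm over all libraries, although Zfp981, Zfp993 and Zfp985 exceeded this level in single strains, and some had a strain at or under 3 reads. Zfp981, with the highest mean in cpm among them, was at 0.996, 1.12 and 1.10 cpm in 129S1/Svlmj, against 0.0996 to 0.964 cpm in the others. Zfp993 was at 0.688 to 1.12 cpm in A/J and 0.826 to 1.10 cpm in CAST/EiJ, and it was lowest in NZO/HlLtJ, at 0.163, 0.253 and 0.000148 cpm. Zfp985 was at 0.635, 0.649 and 0.503 cpm in NOD/ShiLtJ, above the 0.0138 to 0.369 cpm of the other strains. Zfp980 was lowest in C57BL/6J, at 0.0542, 0.0315 and 0.0338 cpm, against 0.0661 to 0.406 cpm in the other strains. Zfp986 and Zfp988 were higher in A/J, at 0.254, 0.301 and 0.295 cpm and 0.273, 0.324 and 0.474 cpm, and C57BL/6J followed with 0.0695, 0.0915 and 0.240 cpm and 0.147, 0.223 and 0.292 cpm. In the other strains Zfp986 did not exceed 0.122 cpm and Zfp988 did not exceed 0.0795 cpm. All 3 libraries were at or under 3 reads for Zfp986 in 129S1/Svlmj, WSB/EiJ and NZO/HlLtJ and for Zfp978 in C57BL/6J and A/J. Zfp978 was at 0.132 to 0.231 cpm in CAST/EiJ, where it was highest. Floor values in all 3 libraries were also seen for Zfp987 in C57BL/6J and WSB/EiJ and for Zfp989 in 5 strains, and the highest strain means of these genes were 0.0479 cpm and 0.035 cpm, too low at this depth for differences to be detectable.

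**Figure D3:**
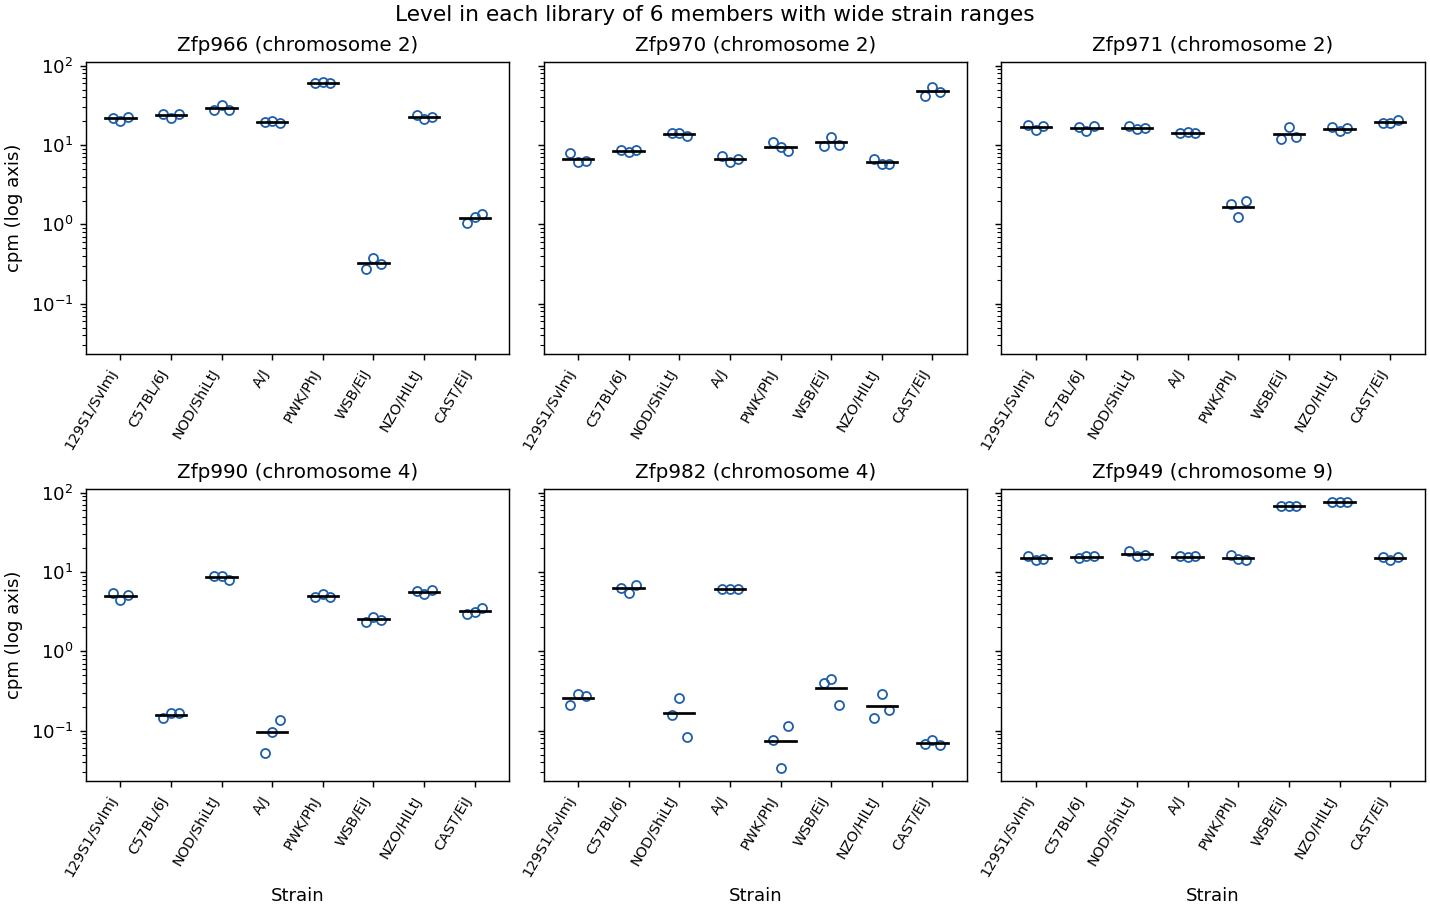
Level in each library (circles, cpm on a log axis) and strain mean (bars) by strain for Zfp966, Zfp970, Zfp971, Zfp990, Zfp982 and Zfp949. The 3 libraries of a strain lie close together compared with the distance between high and low strains, as for Zfp949 at 67.7 to 75.7 cpm in NZO/HlLtJ and WSB/EiJ and 14.1 to 18.3 cpm in the other strains.

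Among members that stand alone, the widest range was that of Zfp949, which has almost no shared sequence. Zfp949 (chr9:88548020-88571061), with 11 fingers, was at 75.5, 75.7 and 75.6 in NZO/HlLtJ and 68.8, 67.7 and 68.9 in WSB/EiJ (cpm). It was at 16.1, 14.2 and 14.6 in 129S1/Svlmj, 15.7, 15.3 and 15.7 in A/J and 15.1, 15.8 and 16.1 in C57BL/6J. It was at 18.3, 15.7 and 16.2 in NOD/ShiLtJ, 15.6, 14.2 and 15.6 in CAST/EiJ and 16.2, 14.7 and 14.1 in PWK/PhJ. NZO/HlLtJ and WSB/EiJ were thus high and the 6 other strains shared a level of 14.1 to 18.3 cpm, with a ratio of 5.06 between the highest and lowest mean (range 2.27 on the log2(cpm + 1) scale, limma, Benjamini-Hochberg adjusted p = 2.14e-21). Zfp951 on chromosome 5 was highest in WSB/EiJ, at 9.62, 10.1 and 9.21 cpm. It was at 5.65, 5.24 and 4.81 in A/J, 5.52, 5.06 and 5.17 in NZO/HlLtJ and 4.18, 4.90 and 6.57 in CAST/EiJ, and at 3.14, 3.44 and 2.67 in PWK/PhJ. It was at 2.62, 2.34 and 3.05 in C57BL/6J, 1.17, 1.27 and 1.82 in 129S1/Svlmj and 1.16, 1.54 and 1.23 in NOD/ShiLtJ. WSB/EiJ did not overlap with any other strain, and the lowest strains, NOD/ShiLtJ and 129S1/Svlmj, overlapped with each other (ratio of means 7.37, range 2.21 on the log2(cpm + 1) scale, limma, Benjamini-Hochberg adjusted p = 4.05e-13). Zfp937 on chromosome 2, outside the cluster, was low in WSB/EiJ alone, at 2.37, 2.83 and 2.16 cpm against 6.99 to 11.2 cpm (range 1.74 on the log2(cpm + 1) scale, limma, Benjamini-Hochberg adjusted p = 5.25e-14). Zfp960 on chromosome 17, with 86.8% of its words in Zfp97, was at 19.03, 17.9 and 20.7 cpm in CAST/EiJ and 4.97, 5.23 and 4.61 cpm in PWK/PhJ, each apart from the other strains at 6.02 to 13.6 cpm (range 1.77 on the log2(cpm + 1) scale, limma, Benjamini-Hochberg adjusted p = 3.43e-11). Zfp974 on chromosome 7, with the most fingers, was low in PWK/PhJ at 5.26, 4.66 and 4.06 cpm and at 8.37 to 14.6 cpm elsewhere (range 1.42 on the log2(cpm + 1) scale, limma, Benjamini-Hochberg adjusted p = 3.26e-12). Zfp932 on chromosome 5 was high in CAST/EiJ, at 26.6, 26.1 and 27.4 cpm, followed by WSB/EiJ at 19.3, 19.6 and 18.3 cpm, against 10.2 to 17.9 cpm in the other strains (range 1.26 on the log2(cpm + 1) scale, limma, Benjamini-Hochberg adjusted p = 8.56e-15). Zfp960, Zfp932 and Zfp937 share words with genes outside the name range, led by Zfp97, Gm15446 and Zfp442 (89.2%, 48.3% and 45.3% of words shared with any gene), so their values are uncertain.

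The other single members that were called had ranges under 1. Zfp956 on chromosome 6 was lowest in PWK/PhJ, at 4.59, 4.74 and 4.38 cpm against 4.95 to 9.55 cpm (range 0.88 on the log2(cpm + 1) scale, limma, Benjamini-Hochberg adjusted p = 4.5e-10). Zfp940 on chromosome 7 was highest in 129S1/Svlmj, NOD/ShiLtJ and WSB/EiJ, at 6.98 to 9.05 cpm, and at 4.23 to 6.28 cpm in the others without overlap (range 0.84 on the log2(cpm + 1) scale, limma, Benjamini-Hochberg adjusted p = 4.26e-12). Ranges were 0.60 for Zfp953, 0.58 for Zfp941, 0.44 for Zfp961, 0.37 for Zfp950 and 0.25 for Zfp952, each called and with libraries at 2.63 to 44.5 cpm. Zfp938, Zfp954, Zfp958 and Zfp959, the remaining single members, were not called.

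The chromosome 17 cluster was the steadiest of the large ones, and its summed level was 86.4 to 104.3 cpm over the strain means, a range of 0.27 on the log2(cpm + 1) scale. The 1 wide member was Zfp947, with 9 fingers, which was nearly absent in PWK/PhJ at 0.0788, 0.141 and 0.159 cpm and highest in NOD/ShiLtJ at 2.08, 1.999 and 2.13 cpm. The other strains were at 0.549 to 1.99 cpm, so both strains were apart, with a ratio of means of 16.4 (range 1.45 on the log2(cpm + 1) scale, limma, Benjamini-Hochberg adjusted p = 2.56e-09). Zfp995, which shares 16.1% of its words with Zfp947, was low in CAST/EiJ instead, at 0.891, 0.835 and 1.10 cpm against 1.65 to 2.94 cpm (range 0.99 on the log2(cpm + 1) scale, limma, Benjamini-Hochberg adjusted p = 2.22e-08). Zfp945, the member with the longest coding sequence at 794 codons, was low in PWK/PhJ, at 10.2, 12.2 and 11.2 cpm against 16.5 to 23.2 cpm (range 0.88 on the log2(cpm + 1) scale, limma, Benjamini-Hochberg adjusted p = 8.86e-10). Zfp983 was highest in NZO/HlLtJ, 129S1/Svlmj and A/J, at 12 to 14.6 cpm, and lower in the other strains, at 7.12 to 11.3 cpm (range 0.79 on the log2(cpm + 1) scale, limma, Benjamini-Hochberg adjusted p = 5.16e-11). Zfp994 was lowest in PWK/PhJ at 5.004, 6.67 and 5.10 cpm, and the range was 0.66 for Zfp994, 0.61 for Zfp943 and 0.30 for Zfp942, all called. Zfp944, Zfp946 and Zfp948 completed the cluster and were not called. Of 14 other tested genes inside the cluster 2 had a wide range (14.3%), against 3 of 57 (5.26%) in the 2 Mb on either side.

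The small clusters held 8 members, none with a wide range, a count near the share of 11.4% over all genes. On chromosome 7, Zfp977, Zfp976 and Zfp975 were each lowest in PWK/PhJ, with means of 0.551, 4.16 and 4.65 cpm, and had ranges of 0.47, 0.63 and 0.33 on the log2(cpm + 1) scale. The call of Zfp975 was close to the threshold (limma, Benjamini-Hochberg adjusted p = 0.00769) and was lost when any 1 of 15 single libraries was left out, each PWK/PhJ library among them (adjusted p = 0.0101 to 0.0316). On chromosome 8, Zfp963 was highest in WSB/EiJ, at 8.01, 10.2 and 7.85 cpm against 3.498 to 6.30 cpm in the other strains (range 0.94 on the log2(cpm + 1) scale, limma, Benjamini-Hochberg adjusted p = 8.6e-08), an uncertain value because of the overlap with Gm20422. Its neighbour Zfp964 was called with a range of 0.44, and Zfp930 was not called. On chromosome 13, Zfp934 was called with a range of 0.43 and libraries at 2.08 to 3.76 cpm, a call lost without the first NOD/ShiLtJ library (limma, Benjamini-Hochberg adjusted p = 0.0109), and Zfp935, which overlaps it, was not called.

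The called members with the smallest ranges and those not called show how even part of the family was. Zfp952 was at 9.20 to 12.02 cpm over all 24 libraries, with a range of 0.25 on the log2(cpm + 1) scale (limma, Benjamini-Hochberg adjusted p = 0.000901). Zfp942 was at 11.9 to 16.9 cpm, with a range of 0.30 (limma, Benjamini-Hochberg adjusted p = 0.000337), and Zfp975 at 4.39 to 6.54 cpm, with a range of 0.33. In these the libraries of the highest strain overlapped with those of other strains. Among the 10 members not called, Zfp959, Zfp933, Zfp948 and Zfp954 had ranges of 0.15, 0.17, 0.20 and 0.21 (limma, Benjamini-Hochberg adjusted p = 0.62, 0.252, 0.149 and 0.139). Zfp958, Zfp938, Zfp930 and Zfp944 had ranges of 0.23, 0.26, 0.31 and 0.36 (limma, Benjamini-Hochberg adjusted p = 0.108, 0.0278, 0.0227 and 0.0287), and Zfp946 had 0.44 (limma, Benjamini-Hochberg adjusted p = 0.015). Zfp935, with all of its words shared, had a large spread within strains, such as 0.883, 0.102 and 1.79 cpm in NZO/HlLtJ, and its range of 0.80 was not called (limma, Benjamini-Hochberg adjusted p = 0.0839). Single libraries decided calls here, given as limma with Benjamini-Hochberg adjustment without the library in question. Zfp935 was called without the second NZO/HlLtJ library (adjusted p = 0.00627), Zfp938 without the second PWK/PhJ library (adjusted p = 0.00668) and Zfp930 without the first WSB/EiJ library (adjusted p = 0.00314). Zfp946 was called without the first 129S1/Svlmj library (adjusted p = 0.0015) or the second WSB/EiJ library (adjusted p = 0.00173), and Zfp944 without the latter (adjusted p = 0.00453).

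Each strain was then set against the mean of the other 7, which asks where a strain stands out, with a call at a Benjamini-Hochberg adjusted p under 0.01 in limma and a difference of at least 0.5 on the log2(cpm + 1) scale. The 8 comparisons share libraries, so they are given side by side. PWK/PhJ had the most members called, 6 higher (background 4.72%) and 12 lower (5.41%) of 50. Its largest difference was Zfp971, at -2.69 ± 0.0769 (SE; limma, Benjamini-Hochberg adjusted p = 1.94e-18), and the 6 higher members were Zfp990, Zfp965, Zfp968, Zfp973, Zfp967 and Zfp966. Apart from Zfp990 these 6 are copies that share words, so reads can pass between them. The same copies were all among the members called lower in CAST/EiJ and in WSB/EiJ. Counts that hold them are therefore not counts of separate genes, unlike a background over all genes. CAST/EiJ followed with 6 members higher (background 4.2%) and 10 lower (6.13%). Zfp966 was the largest difference there, at -3.04 ± 0.052 (SE; limma, Benjamini-Hochberg adjusted p = 1.04e-22), and Zfp970, Zfp991, Zfp960, Zfp932, Zfp971 and Zfp937 were higher. In WSB/EiJ 3 members were higher (background 2.22%) and 9 lower (2.87%). The largest difference was again Zfp966, at -3.89 ± 0.052 (SE; limma, Benjamini-Hochberg adjusted p = 1.75e-24), and the higher members were Zfp949, Zfp951 and Zfp963. In NZO/HlLtJ 5 members were higher (background 1.87%) and 5 lower (2.16%). Zfp949 led with 1.92 ± 0.0428 (SE; limma, Benjamini-Hochberg adjusted p = 9.26e-20), and the lower members were Zfp970, Zfp991, Zfp982, Zfp992 and Zfp979.

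The classical strains other than NZO/HlLtJ had fewer members called lower. In C57BL/6J, the strain of the reference genome, 6 members were higher (background 2.46%) and 2 lower (1.57%). Zfp982 led with 2.24 ± 0.0569 (SE; limma, Benjamini-Hochberg adjusted p = 6.5e-19), and the lower members were Zfp990 and Zfp949. In A/J 5 members were higher (background 2.11%) and 3 lower (1.84%), with Zfp982 at 2.21 and Zfp990 at -2.05 as the largest differences in each direction. Their SEs were 0.0569 and 0.0527 (limma, Benjamini-Hochberg adjusted p = 1.12e-18 for both). In NOD/ShiLtJ 6 members were higher (background 2.47%) and 2 lower (1.59%). Zfp990 led with 1.53 ± 0.0527 (SE; limma, Benjamini-Hochberg adjusted p = 3.91e-16), and Zfp951 and Zfp982 were lower. In 129S1/Svlmj 6 members were higher (background 2.16%) and 4 lower (1.75%). The largest difference was Zfp951, at -1.08 ± 0.0876 (SE; limma, Benjamini-Hochberg adjusted p = 1.57e-09). Several calls repeat 1 contrast seen from different sides, since a gene low in WSB/EiJ and CAST/EiJ, such as Zfp966, is also called higher in 129S1/Svlmj, A/J, C57BL/6J, NOD/ShiLtJ, NZO/HlLtJ and PWK/PhJ. C57BL/6J had the highest mean of the 8 strains for 4 of 50 members (8%), against 8.85% of all genes tested. An effect of aligning reads to the genome of this strain was not tested. NZO/HlLtJ was the highest strain for 12 of 50 members (24%, background 9.82%), PWK/PhJ for 10 (background 22.1%), CAST/EiJ for 9 (15.6%), NOD/ShiLtJ for 5 (12.8%), WSB/EiJ for 5 (8.85%), 129S1/Svlmj for 4 (10.2%) and A/J for 1 (11.7%). PWK/PhJ was the lowest for 14 of 50 (28%, background 15.8%), CAST/EiJ for 8 (22.6%), WSB/EiJ for 8 (18.9%), 129S1/Svlmj for 7 (10.5%), A/J for 4 (8.95%), NOD/ShiLtJ for 4 (5.51%), NZO/HlLtJ for 3 (9.66%) and C57BL/6J for 2 (8.11%).

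The 3 wild-derived strains were also compared as a group with the 5 classical strains. Of 50 members 3 were higher in the wild-derived strains (background 2.2%) and 7 lower (3.48%). The 7 include Zfp965, Zfp966, Zfp967 and Zfp973, copies that share words. Zfp970 (1.01 ± 0.053, SE), Zfp951 (0.76 ± 0.0598) and Zfp932 (0.57 ± 0.0282) were higher on the log2(cpm + 1) scale, with limma, Benjamini-Hochberg adjusted p = 1.53e-13, 2.59e-10 and 5.94e-14. Zfp966 (-2.09 ± 0.0355, SE), Zfp973 (-1.97 ± 0.0472) and Zfp967 (-1.12 ± 0.0493) were lower, with limma, Benjamini-Hochberg adjusted p = 8.37e-23, 5.5e-20 and 5.61e-15. The others called lower were Zfp982 (-1.09), Zfp971 (-0.87), Zfp965 (-0.78) and Zfp984 (-0.64). The SEs and p-values of this comparison measure the spread between libraries of a strain, and not the spread between the strains of a group. The group means hide opposite strains. Zfp966, Zfp967, Zfp973 and Zfp965 had their lowest means in WSB/EiJ and CAST/EiJ but their highest in PWK/PhJ, Zfp971 was low in PWK/PhJ alone, and Zfp970 was apart from the classical strains in CAST/EiJ alone. Zfp982 was high in C57BL/6J and A/J only, and Zfp984 was highest there, with a higher mean in WSB/EiJ (1.55 cpm) than in 129S1/Svlmj (0.614 cpm). The PWK/PhJ mean of Zfp951 (3.08 cpm) was below those of A/J and NZO/HlLtJ (5.23 and 5.25 cpm), and that of Zfp932 (13.1 cpm) was below that of C57BL/6J (17.1 cpm), so none of these differences separates all wild-derived from all classical strains. With a filter at a mean of 2 cpm, 42 members were tested and 4 were called lower, since Zfp965, Zfp982 and Zfp984 then lay below the filter.

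The genes of the silencing machinery that KRAB proteins recruit varied less than the members. A list of 22 such genes was taken for their known roles, of which 21 passed the filter, with Uhrf1 below it. Of these 12 were called by the F-test over strains (57.1%, against 70.6% of all genes), and 0 had a wide range (background 11.4%), with a median range of 0.29 on the log2(cpm + 1) scale. Trim28, the corepressor that binds the KRAB domain, had means from 26.8 ± 3.24 cpm in NZO/HlLtJ to 41.5 ± 3.27 cpm in PWK/PhJ (SD, n = 3; range 0.62 on the log2(cpm + 1) scale, limma, Benjamini-Hochberg adjusted p = 0.000351). Setdb1, the histone methyltransferase, was lowest in 129S1/Svlmj with a mean of 19.4 ± 0.847 cpm and highest in C57BL/6J with 24.7 ± 1.24 cpm (SD, n = 3; range 0.33, limma, Benjamini-Hochberg adjusted p = 4.72e-06). The largest range in the list was that of the deacetylase gene Hdac1, with means of 2.13 to 4.14 cpm (range 0.72, limma, Benjamini-Hochberg adjusted p = 4.43e-09). Sumo2, a SUMO modifier, was the 1 gene of the list called in a comparison of a strain with the others, with a lower mean of 27.1 ± 1.9 cpm in PWK/PhJ (SD, n = 3) against 37.3 to 43.7 cpm in the other strains. The F-test calls in the list were for Trim28, Setdb1, Cbx1, Cbx3, Cbx5, Hdac1, Daxx, Tasor, Pphln1, Atf7ip, Sumo2 and Resf1.

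Levels of different members were compared per kilobase of exon, as the mean cpm over the 24 libraries divided by the length of the exons. On this scale the median was 1.48 cpm per kb over all 61 members and 2.07 over the 50 tested. The highest were Zfp966 at 7.504, Zfp949 at 7.21, Zfp971 at 6.73, Zfp970 at 6.33 and Zfp933 at 6.00 cpm per kb. The first 4 of these also had wide ranges, so their means over 8 strains cover high and low strains, while Zfp933 was even. Of the 31-base words of Zfp966, Zfp971 and Zfp970, 93.9%, 69.5% and 67.9% were shared, so their places in this order depend on how reads were divided between copies. By mean cpm without regard to length, the members with the most reads were Zfp950, Zfp949, Zfp933, Zfp966 and Zfp945, at 36.1, 29.6, 25.6, 22.4 and 18.7 cpm. Zfp950 on chromosome 19, with 17 fingers and exons of 10615 bases, was at 29.8 to 44.5 cpm over the libraries and lowest in PWK/PhJ at 31.2, 30.2 and 29.8 cpm (range 0.37 on the log2(cpm + 1) scale, limma, Benjamini-Hochberg adjusted p = 7.86e-06). The members of a library summed to 415 to 518 cpm (median 455 cpm).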

How the data were processed

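RNA of 24 retina libraries, 3 for each of 8 mouse strains, was read from 1 table, and each library's strain was taken from its label. The authors trimmed low-quality bases, aligned paired reads of 100 bases to GRCm38/mm10, the assembly of C57BL/6J, with STAR and assigned them to genes by expectation maximization in Partek Flow. The deposited values are CPM, which the authors made from each gene's reads and the library total, with 0.0001 added. The kit keeps strand, but use of strand in counting is not given in the sources used here, and the annotation is named as RefSeq while the table's biotypes are of Ensembl type. Read totals were recovered from the step of 1 read, and the values of a library summed to 332472 to 366570. Only 86.0% to 88.6% of low values were whole reads (tolerance 0.005), so no count test was run.

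Genes whose mean reached 0.5 cpm were fitted as log2(cpm + 1), a pseudocount of 1, with limma 3.58.1 in R 4.3.3 (eBayes with a trend). Calls needed an adjusted p under 0.01, with a range of at least 1 for wide and a difference of at least 0.5 for a strain, and p-values were adjusted by Benjamini-Hochberg over all genes tested. The F-test was tested on simulated data for 16364 genes, with 1 strain changed in genes above a mean of 2 cpm: 78 of 100 genes changed by 0.5 log2 and 99 of 100 changed by 1 were called, with 2 false calls. Gene models and shared words came from GENCODE M21, and promoters from RefSeq GRCm38.p6. Proteins were planned but not used here.

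Named members were the 10 with the widest called ranges, the 5 with the highest mean cpm, the called member with the largest difference for each strain, those with a strain at or under 3 reads, the 3 called with the smallest ranges and all not called; Trim28 and Setdb1 were always named. Other members were named to account for each cluster. Members and lists were chosen with earlier results of these data known. The alternatives were a pseudocount of 0.1, no filter or a mean of 2 cpm, median-ratio and quantile scaling, no moderation, Storey q-values, an adjusted p under 0.05, Xist or lens genes as covariates, leaving out each library, C57BL/6J, or CAST/EiJ with PWK/PhJ, and, chosen after seeing the data, leaving out the 2 libraries richest in lens genes.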

Additional observations from a re-analysis of the deposited data

How the results depend on the processing

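No paired analysis was possible because the replicate numbers only follow the order of deposition and the labels pair no samples, and the blocks in which the authors pooled libraries are not given in the labels. Leaving out each library in turn gave 37 to 42 members called by the F-test (40 with all libraries) and 19 to 21 with a wide range (20). Of the 40 called members 37 kept the call without each single library, and 3 lost it at least once, Zfp975 without any of 15 libraries, Zfp931 without any of 13 and Zfp934 without 1, while 5 members not called gained a call. Calls of a strain against the other 7, summed over strains, were 42 to 46 higher (43) and 44 to 48 lower (47), and the wild-derived comparison gave 3 to 3 higher and 7 to 7 lower. The corepressor list had 10 to 12 genes called (12) and 0 to 0 with a wide range. Under other settings these counts stayed within 1.5 times their values, with the following exceptions. A mean of at least 2 cpm left 4 members lower in wild-derived strains, since fewer members were tested. Storey q-values called 21 corepressor genes, and they called 97.2% of all genes. Without CAST/EiJ and PWK/PhJ, 24 calls summed over strains were lower and 6 corepressor genes were called. The F-test then called 42.4% of all genes against 70.6% with all strains, and 15 of 51 tested members had a wide range (background 5.49%). This setting removes particular strains and also leaves fewer to compare, and the part of each was not tested. A pseudocount of 0.1 gave 23 wide members with a background of 20.1%, and no filter gave 20 of 61 with a background of 6.96%, over 28802 genes. Of 1287 comparisons of 35 results on named members with an alternative, 1247 kept direction and side of the threshold, 21 were no longer called, 19 became called and 0 reversed. The calls lost among these 35 were those of Zfp975, under many settings and with adjusted p up to 0.131 (limma, Benjamini-Hochberg), and of Zfp971 without CAST/EiJ and PWK/PhJ. Zfp971 was low in PWK/PhJ alone, which the latter setting leaves out, and the cause of the lost Zfp975 calls was not tested. Scaling moved the median of all genes by at most 0.033 on the log2 scale. Depth limits the members below the filter, where 3 reads are worth up to 0.0521 cpm.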
